A study of Mus musculus with 6 samples.

Results

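The interleukin-1 (IL-1) family was examined in whole lungs of mice that carry a human TNF transgene and of their wildtype littermates. The genes were chosen by name, as the rows of the deposited count table for the ligands Il1a, Il1b, Il33 and Il18, the inhibitors Il1rn, Il18bp and Il1r2, and the receptors Il1r1, Il1rl1 and Il1rap. All 10 were found among the 49568 gene symbols of the table, and all 10 were among the 19199 that passed the filter on low counts. Poly(A) RNA had been sequenced as 1 library per mouse from lungs of 3 TNF-Tg and 3 WT female mice, 4 months of age, on a C57BL/6 background. The groups differ in the transgene, and the labels name no treatment. TNF-Tg mice make human TNF-α continuously and develop erosive arthritis and pulmonary vascular disease. The samples are whole organs, so a level is a mean over all cells of the lung.

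Family members share a common way of signalling. An agonist binds its own receptor chain, a second chain joins the complex, and the paired intracellular TIR domains recruit Myd88 and the Irak kinases, which lead to NF-κB and MAP kinases. IL-1α and IL-1β use Il1r1 with the shared chain Il1rap, and IL-33 uses Il1rl1, also called ST2, with that same chain. IL-18 uses Il18r1 with Il18rap. The family is tightly restrained. Il1rn encodes a receptor antagonist, Il1r2 a decoy receptor without a signalling domain, and Il18bp a soluble protein that captures IL-18. In lung, IL-33 is stored in nuclei of epithelial and stromal cells, and IL-1β is made chiefly by myeloid cells once they are activated.

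Some of the genes are neighbours in the genome. On mm10, Il1a (chromosome 2, 129299610 to 129309972, minus strand) and Il1b (chromosome 2, 129364570 to 129371139, minus strand) stand 54.6 kb apart. Il1rn (chromosome 2, 24336853 to 24351494, plus strand) lies far from them on the same chromosome, next to the Il36 genes. The receptor genes Il1r2, Il1r1, Il1rl2, Il1rl1, Il18r1 and Il18rap follow each other over 478 kb of chromosome 1, from 40074079 to 40551705, all on the plus strand. Only 0.137 kb separate the end of Il1rl1 from the start of Il18r1. The remaining genes stand alone, Il33 on chromosome 19 (29925114 to 29960718), Il18 on chromosome 9 (50554827 to 50581840), Il18bp on chromosome 7 (102014885 to 102018690) and Il1rap on chromosome 16 (26581704 to 26730117).

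The start regions of Il1a, Il1b and Il1rn are shown because these genes had the largest fold changes of the 10 between TNF-Tg and WT lungs, and that of Il33 because it is the ligand that did not pass the test. Each runs from 250 bases before to 50 bases after a start site in RefSeq (GRCm38.p6), read along the gene, and for genes with more than 1 start the window with the lowest coordinates is given. Capitals mark matches on either strand to 5 short motifs. For the TATA box the letters searched were TATAAA. The AP-1 motif, bound by Fos and Jun proteins, was searched as TGANTCA. The core that ETS factors such as PU.1 recognise was searched as GAGGAA. For C/EBP factors of myeloid cells and liver the letters were TTGCNNAA. The last motif was the NF-κB core, a loose pattern with an outer G run, an outer C run and free bases between. Adjoining matches run together in capitals.
Il1a, chr2:129309923-129310222, minus strand: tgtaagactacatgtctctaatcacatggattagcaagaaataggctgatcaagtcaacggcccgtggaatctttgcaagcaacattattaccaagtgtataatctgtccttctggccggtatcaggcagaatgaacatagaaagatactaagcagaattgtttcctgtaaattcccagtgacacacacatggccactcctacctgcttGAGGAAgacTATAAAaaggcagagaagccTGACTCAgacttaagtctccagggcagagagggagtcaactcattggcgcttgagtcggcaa
Il1b, chr2:129371090-129371389, minus strand: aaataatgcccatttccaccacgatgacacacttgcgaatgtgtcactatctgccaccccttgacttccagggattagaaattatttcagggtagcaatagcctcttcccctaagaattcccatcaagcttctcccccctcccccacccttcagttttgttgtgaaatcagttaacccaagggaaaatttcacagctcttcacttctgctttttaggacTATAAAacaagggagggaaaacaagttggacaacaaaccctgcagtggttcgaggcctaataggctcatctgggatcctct
Il1rn, chr2:24336610-24336909, plus strand: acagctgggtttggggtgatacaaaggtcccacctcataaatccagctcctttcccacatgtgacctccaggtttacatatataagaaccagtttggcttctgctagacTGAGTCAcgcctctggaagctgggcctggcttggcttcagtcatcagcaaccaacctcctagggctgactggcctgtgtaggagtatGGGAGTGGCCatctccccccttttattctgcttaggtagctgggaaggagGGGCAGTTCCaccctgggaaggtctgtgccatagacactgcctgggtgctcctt
Il33, chr19:29924863-29925162, plus strand: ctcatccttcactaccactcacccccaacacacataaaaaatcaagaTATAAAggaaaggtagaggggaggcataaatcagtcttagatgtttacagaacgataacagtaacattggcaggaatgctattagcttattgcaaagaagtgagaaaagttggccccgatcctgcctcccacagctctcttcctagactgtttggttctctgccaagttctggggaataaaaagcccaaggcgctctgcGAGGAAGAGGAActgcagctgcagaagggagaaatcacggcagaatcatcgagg

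Counting the start base as 0, a TATA box began at -32 in the Il1a window and at -31 in the Il1b window. The Il1a window also held the AP-1 motif, at -12, and the Il1rn window held it at -141. The NF-κB core was found at -54 and -4 of the Il1rn window shown and in neither the Il1a nor the Il1b window. The 10 genes had 15 windows in the RefSeq table. The TATA letters were in 6 of the 15, against 13.6% of all 32851 windows, and the NF-κB core was in 5 of the 15, against 50.8% of all windows. These 5 belong to Il1r1, Il1rn and Il1rap, and the same match was counted in overlapping windows of Il1rn. The AP-1 motif was in 2 of 15 windows (7.81% of all), the ETS/PU.1 core in 3 (28.3% of all) and the C/EBP motif in 4 (10.8% of all). A pattern as loose as the NF-κB core is found in many promoters, and a match describes letters, not a bound factor.

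Before the family is described, the lungs are characterised. Total counts were 25396923 to 30049463 in the TNF-Tg lungs and 31400978 to 32529408 in the WT lungs, and 3 counts, taken as the smallest detected number, equal 0.0922 to 0.118 CPM (counts scaled to library size). That floor, like any limit from counts here, reflects counting error alone. The lung identity of the samples was clear, with Sftpc, the surfactant protein C gene of alveolar type 2 cells, at 286171 counts or more in every lung. Mouse Tnf had 106, 213 and 405 counts in the TNF-Tg lungs against 16, 14 and 35 in the WT lungs, and reads of the human transgene enter this row only as far as they map to the mouse gene. In TNF-Tg replicate 1 a single gene, Gm42418, took 5.22% of the counts, against at most 0.274% elsewhere. WT replicate 1 held squamous epithelium and skeletal muscle genes at a summed level of 3589 and 2004 CPM, against at most 33.3 and 49.0 CPM in the other lungs. Expression differed widely between the groups, with 47.4% of the genes tested past an adjusted p of 0.05, 24.0% higher and 23.4% lower in TNF-Tg lungs (edgeR quasi-likelihood test, Benjamini-Hochberg adjustment over all 19199 genes, used for every adjusted p that follows unless another tool is named). The median log2 fold change of all genes tested was 0.03.

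In TNF-Tg lungs, 7 of the 10 IL-1 family genes were higher than in WT lungs and none was lower (0 of 10), where 24.0% of all genes were higher. The genes were chosen with earlier results of these data known, so this contrast is a description and not independent support. The 7 were the agonists Il1a, Il1b and Il18, the inhibitors Il1rn and Il18bp, and the receptors Il1r1 and Il1rl1. In each of these 7, every TNF-Tg lung lay above every WT lung, an arrangement found in 30.5% of all genes tested (58.7% without overlap in either direction). Il33, Il1r2 and Il1rap did not pass the test. The median log2 fold change was 0.90, against 0.03 for all genes. At an absolute log2 fold change of at least 1, 4 of the 10 remained, Il1a, Il1b, Il1rn and Il18bp, where 22.5% of all genes passed in either direction. In a whole lung a change in the number of cells that express a gene and a change in RNA per cell cannot be told apart.

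**Figure D1:**
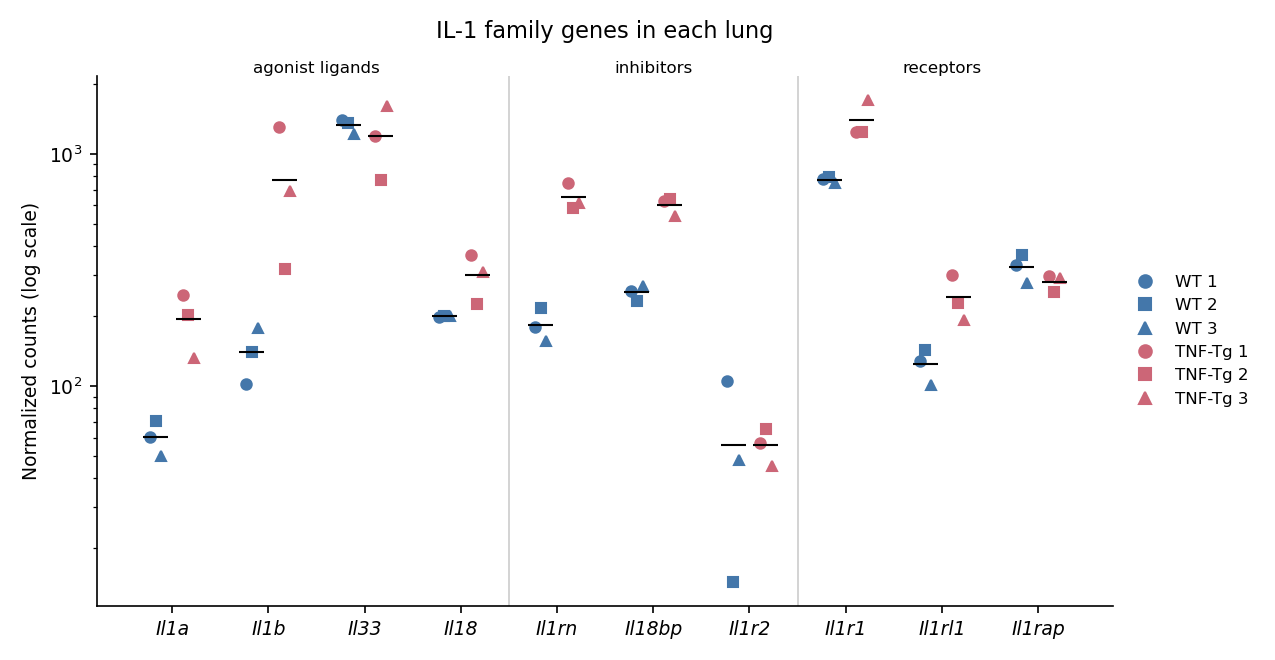
Normalized counts (log axis) of the 10 IL-1 family genes in each lung, WT in blue and TNF-Tg in red, with circles, squares and triangles for replicates 1, 2 and 3 and a black line at each group mean. The groups are apart for Il1a, Il1b, Il18, Il1rn, Il18bp, Il1r1 and Il1rl1 and overlap for Il33, Il1r2 and Il1rap, and the WT lungs are spread most for Il1r2 (14.4 to 105).

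Il1b (ENSMUSG00000027398.13), the gene of the secreted and inflammasome-dependent agonist IL-1β, rose the most. Its normalized counts, which are counts scaled to a common library size, were 1304, 319 and 689 in the TNF-Tg lungs and 102, 140 and 178 in the WT lungs. The lowest TNF-Tg lung thus stood above the highest WT lung, and the TNF-Tg lungs differed among themselves by 4.09-fold. Il1b was thus 5.48-fold higher (95% interval 2.59 to 11.6, log2 fold change 2.46, standard error 0.47, adjusted p = 0.00345). The size depended on TNF-Tg replicate 1, without which the log2 fold change was 1.81 (adjusted p = 0.00661 by edgeR). The antisense gene Il1bos, which shares 25 exonic bases with Il1b on the opposite strand, had at most 13 counts in any lung.

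Il1a (ENSMUSG00000027399.1) encodes IL-1α, an alarmin that is active without cleavage and is released from damaged cells. It moved the same way as Il1b, from 60.2, 70.9 and 49.8 normalized counts in WT lungs to 247, 203 and 132 in TNF-Tg lungs. No TNF-Tg lung came near the WT range. The mean rise was 3.20-fold (95% interval 2.08 to 4.94, log2 fold change 1.68, standard error 0.27, adjusted p = 0.00148). Over the TNF-Tg lungs the order was not that of Il1b, since replicate 3 was lowest for Il1a and replicate 2 for Il1b. Gm14023, which covers 222 exonic bases of Il1a on the opposite strand, had at most 18 counts per lung.

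Il18 (ENSMUSG00000039217.13), the gene of a second inflammasome substrate that is made constitutively by epithelium and macrophages, rose less. The WT lungs were almost identical, at 199, 199 and 200 normalized counts, and the TNF-Tg lungs had 367, 225 and 309. The WT values come from 208, 208 and 225 counts and lie closer together than counting error alone usually leaves them. The groups were apart, but TNF-Tg replicate 2 exceeded the highest WT lung only slightly. The log2 fold change was 0.59 (95% interval 0.15 to 1.03, adjusted p = 0.0336). This was the least secure call of the 7. It was lost on leaving out any single WT lung, TNF-Tg replicate 1 or TNF-Tg replicate 3 (5 of 6 such fits), with log2 fold changes of 0.39 to 0.59 and adjusted p between 0.0663 and 0.146 by edgeR, and with scaling by total counts alone (adjusted p = 0.0527).

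Il33 (ENSMUSG00000024810.16), the nuclear alarmin that activates ST2-bearing type 2 lymphoid cells, mast cells and regulatory T cells, had 1397, 1358 and 1219 normalized counts in WT lungs. In the TNF-Tg lungs it had 1189, 771 and 1603. The TNF-Tg lungs thus lay on both sides of the WT range, with replicate 3 above it and replicates 1 and 2 below. The spread was 35.0% of the mean in TNF-Tg lungs (CV, n = 3) against 7.06% in WT lungs. The fold change was 0.897, with a 95% interval of 0.623 to 1.29 (adjusted p = 0.601), an interval that holds changes in either direction. The log2 fold change was 0.079 without TNF-Tg replicate 2 and was -0.45 without replicate 3 (adjusted p = 0.703 and 0.0936 by edgeR).

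Among the inhibitors, Il1rn (ENSMUSG00000026981.15), which encodes the IL-1 receptor antagonist in secreted and intracellular forms, gave the smallest p-value of the family. It had 750, 586 and 616 normalized counts in TNF-Tg lungs and 179, 217 and 156 in WT lungs. The groups were widely separated and the TNF-Tg lungs agreed within 1.28-fold. Il1rn was 3.54-fold higher (95% interval 2.71 to 4.61, log2 fold change 1.82, standard error 0.17, adjusted p = 8.47e-05). Counts per gene do not tell the secreted from the intracellular form, for which RefSeq lists 3 starts in all.

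Il18bp (ENSMUSG00000070427.4), whose product neutralises IL-18 and is known as an interferon-γ response gene, had 626, 641 and 542 normalized counts in TNF-Tg lungs. In WT lungs it had 257, 233 and 270. It was the most even of the 7 risen genes within the TNF-Tg group (CV 8.88%, n = 3). The rise was 2.38-fold (95% interval 1.94 to 2.91, log2 fold change 1.25, standard error 0.13, adjusted p = 0.000148). Numa1, which shares 80 exonic bases with it on the opposite strand and had 4381 to 9081 counts per lung, was lower in TNF-Tg lungs (log2 fold change -0.41, adjusted p = 0.0134), the other direction.

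Il1r2 (ENSMUSG00000026073.13), the decoy receptor that neutrophils and monocytes carry, had 56.7, 65.2 and 45.3 normalized counts in TNF-Tg lungs. In WT lungs it had 105, 14.4 and 48.0, a 7.31-fold spread that contained all TNF-Tg lungs. The fold change was 0.997 (adjusted p = 0.997), and the 95% interval of its log2 value, -1.33 to 1.32, is the widest of the 10 genes. Without WT replicate 1, the lung that carries the squamous and muscle genes, the log2 fold change was 0.80 (adjusted p = 0.230 by edgeR).

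Of the receptors, Il1r1 (ENSMUSG00000026072.12), the signalling receptor of IL-1α and IL-1β, rose as well. It had 1241, 1237 and 1708 normalized counts in TNF-Tg lungs against 779, 791 and 746 in WT lungs. The WT lungs differed by 1.06-fold, and TNF-Tg replicate 3 stood above the other TNF-Tg lungs. Il1r1 was 1.81-fold higher (95% interval 1.45 to 2.26, log2 fold change 0.85, standard error 0.14, adjusted p = 0.00154). Il1r1 thus rose together with its agonists and its antagonist.

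Il1rl1 (ENSMUSG00000026069.15), the receptor of IL-33, rose although Il33 itself did not pass the test. It had 301, 229 and 193 normalized counts in TNF-Tg lungs and 128, 143 and 101 in WT lungs. Il1rl1 was 1.94-fold higher (95% interval 1.36 to 2.75, log2 fold change 0.95, standard error 0.22, adjusted p = 0.0082). It is known to be made as a membrane receptor and as a soluble decoy from different starts of the gene, and RefSeq lists 2 starts, which gene counts do not tell apart.

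Il1rap (ENSMUSG00000022514.14), the accessory chain shared by the IL-1, IL-33 and IL-36 receptors, did not pass the test, whereas its partners Il1r1 and Il1rl1 rose. It had 297, 253 and 291 normalized counts in TNF-Tg lungs and 333, 366 and 276 in WT lungs. The groups overlapped in WT replicate 3. The ratio of TNF-Tg to WT was 0.862 (95% interval 0.677 to 1.10, adjusted p = 0.280), and it was below 1 in each of the 16 fits of the whole table, of which 0 called it.

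**Figure D2:**
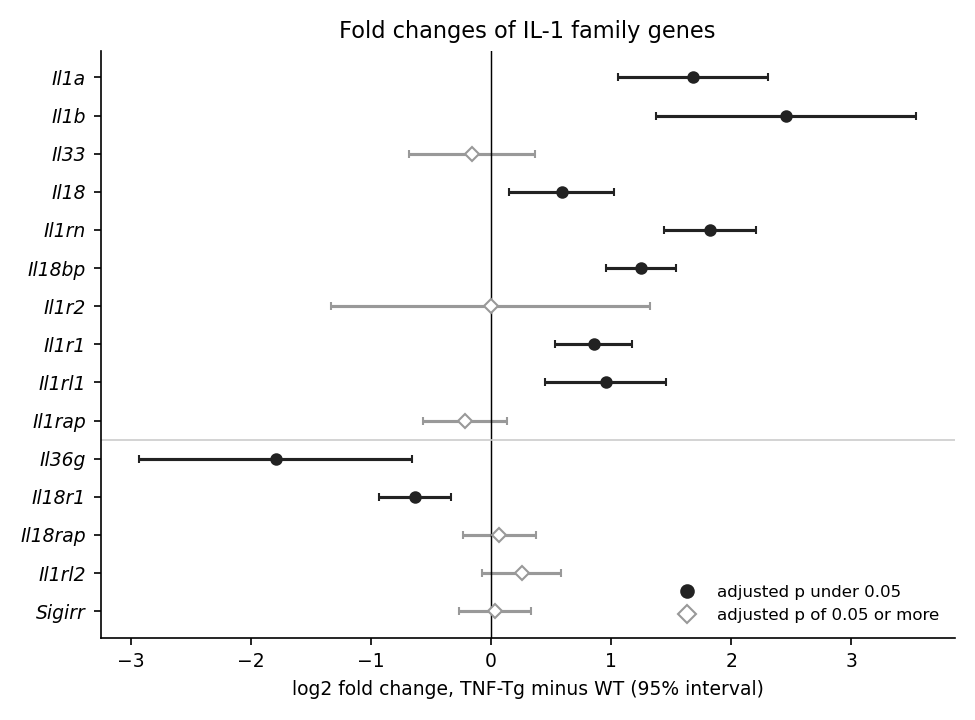
Log2 fold changes (TNF-Tg minus WT, points) with 95% intervals (bars) from edgeR for the 10 genes, above the grey line, and the 5 other IL-1 family genes that could be tested, below it. Filled circles mark an adjusted p under 0.05, with 7 of the 10 above zero and Il36g and Il18r1 below zero, and open diamonds mark the rest.

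The levels of different genes can be compared only per length, and scaled counts were therefore divided by the exonic length of each gene in GENCODE M21 and by depth (RPKM, reads per kilobase and CPM unit). In WT lungs Il33 was highest with 15.2 ± 1.07 RPKM (SD, n = 3), apart from Il18 at 6.40 ± 0.0188 and Il1r1 at 4.01 ± 0.119. Il18bp (2.77 ± 0.207) and Il1b (2.43 ± 0.655) came next, and their ranges overlapped. Il1rn, Il1a, Il1r2 and Il1rap followed at 0.947 to 1.10 RPKM with overlapping ranges, and Il1rl1 was lowest by mean (0.595 ± 0.101), with its range inside that of Il1r2 (0.249 to 1.82). In TNF-Tg lungs Il33 (13.6 ± 4.77 RPKM) and Il1b (13.4 ± 8.64) led by mean and were not distinguishable. Il18 (9.63 ± 2.28), Il1r1 (7.25 ± 1.41) and Il18bp (6.59 ± 0.586) followed, each overlapping the next among them. The range of Il1b, 5.53 to 22.6 RPKM, also overlapped those of Il18, Il1r1 and Il18bp. Il1rn (3.89 ± 0.522) and Il1a (3.25 ± 0.967) overlapped as well. Il1rl1, Il1r2 and Il1rap were the lowest, between 0.816 and 1.15 RPKM. Il1b thus moved from the fifth to the second place by mean level, and Il1rap from the ninth to the tenth.

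The balance between genes that act together (an inhibitor and its target, a receptor and its ligand, or both chains of a receptor) was followed as the difference of log2 CPM between both genes within a lung, in 6 pairs chosen by function. With 3 lungs against 3 the two-sided exact permutation test cannot go below p = 0.1, so these are descriptions. Il18bp over Il18, given here as the ratio of counts, was higher in every TNF-Tg lung (1.71, 2.84 and 1.76) than in every WT lung (1.29, 1.17 and 1.35), with a mean log2 difference of 0.69 (exact permutation p = 0.1, adjusted over the 6 pairs 0.2). Il1rl1 over Il33, on the log2 scale, was also higher in each TNF-Tg lung (-1.98, -1.75 and -3.04) than in any WT lung (-3.43, -3.23 and -3.56), by 1.15 on average (same p-values). Il1rap over Il1r1 was lower in each TNF-Tg lung (-2.06, -2.28 and -2.55) than in any WT lung (-1.22, -1.11 and -1.43), with a mean difference of -1.04 (same p-values).

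For IL-1 itself the balance overlapped between the groups. Il1rn over Il1b was -0.80, 0.88 and -0.16 in TNF-Tg lungs and 0.79, 0.62 and -0.18 in WT lungs (mean difference -0.44, exact permutation p = 0.7, adjusted 0.8). TNF-Tg replicates 1 and 3 and WT replicate 3 lay below zero. Il1rn over Il1a was even in WT lungs (1.54, 1.58 and 1.61) and was 1.60, 1.52 and 2.20 in TNF-Tg lungs (mean difference 0.20, exact permutation p = 0.8, adjusted 0.8). Il1r2 over Il1r1 ranged from -5.60 to -2.87 in WT lungs and from -5.18 to -4.21 in TNF-Tg lungs (mean difference -0.47, exact permutation p = 0.6, adjusted 0.8).

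**Figure D3:**
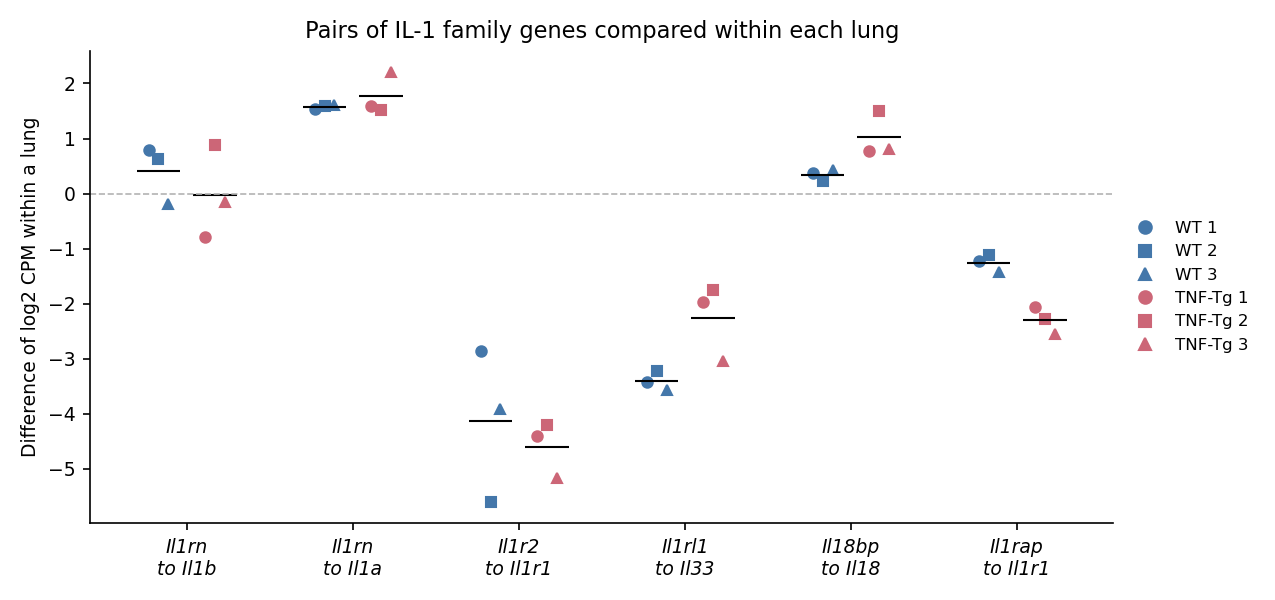
Difference of log2 CPM between 2 genes within each lung for 6 pairs, WT in blue and TNF-Tg in red, with a black line at each group mean and a dashed line where both genes have equal counts. Il1rl1 to Il33 and Il18bp to Il18 are higher, and Il1rap to Il1r1 lower, in all 3 TNF-Tg lungs, while the other 3 pairs overlap.

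Further genes of the family were examined in the same way. Of 11 further ligands and receptors, 5 passed the filter on low counts, and the rest could not be tested. Of these 5, none was higher (0 of 5) and 2 were lower in TNF-Tg lungs, where 24.0% of all genes were higher and 23.4% lower. Il18r1, the binding chain of the IL-18 receptor, fell from 1884, 1626 and 1516 normalized counts in WT lungs to 1228, 1081 and 932 in TNF-Tg lungs. The groups did not overlap, and the change was -0.63 on the log2 scale (standard error 0.13, adjusted p = 0.00481). It was called in each fit that left out 1 lung. Its signalling partner Il18rap had a log2 fold change of 0.07 (95% interval -0.24 to 0.37, adjusted p = 0.693). Il1rl2, the IL-36 receptor, had 0.25 (95% interval -0.07 to 0.58, adjusted p = 0.173), and the negative regulator Sigirr had 0.03 (95% interval -0.27 to 0.33, adjusted p = 0.866).

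Il36g, an agonist of barrier epithelium that the table lists under its older symbol Il1f9, had 30.3, 14.5 and 28.3 normalized counts in TNF-Tg lungs and 135, 37.4 and 80.9 in WT lungs. It was lower by a log2 value of -1.79 (standard error 0.49, adjusted p = 0.0177). The call was lost without WT replicate 1 (log2 fold change -1.31, adjusted p = 0.0538) and without TNF-Tg replicate 2 (log2 fold change -1.52, adjusted p = 0.0631). WT replicate 1, which had the highest level, was also the lung with squamous epithelium genes. Il36a had 38 counts, Il36b 19 counts and Il36rn 31 counts in that lung and, over the other 5 lungs, 1 count of Il36a and 0 of the others. The part of the squamous genes in the Il36 counts was not tested. Il1f10 and the neuronal accessory proteins Il1rapl1 and Il1rapl2 had at most 2 counts in any lung, under the floor of 3 counts.

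Downstream of the receptors, 28 signalling genes were tested, of which 10 were higher, 1 was lower and 17 did not pass, a share of 39.3% called against 47.4% of all genes (24.0% higher and 23.4% lower). The median log2 fold change was 0.22. The largest rise was in Tnfaip3, which encodes the deubiquitinase A20 (log2 fold change 3.74, adjusted p = 5.76e-06). Irak3, the inhibitory Irak of myeloid cells (1.75, adjusted p = 2.1e-05), and Nfkbia, the NF-κB inhibitor IκBα (1.57, adjusted p = 0.000137), came next. The proximal adaptor Myd88 rose by 0.45 (adjusted p = 0.00676) and the kinase Irak4 by 0.75 (adjusted p = 0.0018). Tollip, an adaptor that dampens IL-1 signalling, was the single gene that fell, by 0.36 on the log2 scale (adjusted p = 0.0119). Tnfaip3 and Nfkbia are also known as genes that TNF induces through NF-κB.

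Genes that process or release the ligands changed in both directions. Of 16 tested, 9 were higher, 5 lower and 2 did not pass (87.5% called, against 47.4% of all genes, 24.0% higher and 23.4% lower). With 1 lung left out, 8 to 9 were higher and 4 to 5 lower. The risers were the inflammasome and cell death genes, led by Nlrc4, a sensor (log2 fold change 2.95, adjusted p = 2.39e-05), Casp4, a caspase that opens gasdermin D (2.15, adjusted p = 0.000628), and Casp1, which cleaves IL-1β and IL-18 to their active forms (555, 596 and 795 counts in TNF-Tg against 166, 152 and 236 in WT lungs, log2 fold change 2.03, adjusted p = 5.63e-05). The largest falls were in granule proteases that cleave IL-1 family ligands outside cells. Elane, neutrophil elastase, had 1, 0 and 1 counts against 33, 16 and 32 (adjusted p = 0.00068), and the mast cell chymases Cma1 (-3.17, adjusted p = 0.0024) and Mcpt4 (-2.72, adjusted p = 0.0043) fell as well. Both chymase genes also stand on the mast cell marker list. Without TNF-Tg replicate 3, the chymases had log2 fold changes of -4.57 and -3.78.

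Of the genes that IL-1 is known to induce, those that passed the test were higher. Of 17 tested, 10 were higher, 0 were lower and 7 did not pass (58.8% called, against 47.4% of all genes, of which 24.0% higher), with a median log2 fold change of 1.43. Saa3, an acute phase protein of macrophages and epithelium, rose by 7.89 (adjusted p = 3.96e-05), Cxcl2, a neutrophil chemokine, by 6.92 (adjusted p = 0.00204) and Ccl2, the monocyte chemokine, by 6.32 (adjusted p = 3.99e-05). Cxcl2 rested largely on TNF-Tg replicate 1, with 1684 counts there against 200 and 244 in the other TNF-Tg lungs, and its log2 fold change without that lung was 4.88. Saa3 had a log2 fold change of 8.89 without WT replicate 3, the WT lung in which it was highest. Il6 was too low to be tested, with 24, 5 and 12 counts in TNF-Tg and 2, 3 and 5 in WT lungs. Ptgs2, the inducible cyclooxygenase gene and a known IL-1 target, had a log2 fold change of -0.90 (adjusted p = 0.225) and was lower without TNF-Tg replicate 1 (-2.08, adjusted p = 0.00139 by edgeR), where 10 were higher and 1 was lower. TNF induces most of these genes too.

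The type 2 genes that IL-33 is known to induce did not move one way. Of 9 tested, 2 were higher, 3 lower and 4 did not pass (55.6% called, near the 47.4% of all genes), with a median log2 fold change of -0.16. Without TNF-Tg replicate 1, 4 were lower, and the median ranged from -0.49 to 0.076 over the fits with 1 lung left out. Retnla, the alternative activation marker FIZZ1 (-2.02, adjusted p = 0.00817), Areg, the repair factor amphiregulin (-1.97, adjusted p = 0.00175), and Ccl22, a chemokine for Ccr4-bearing T cells (-1.59, adjusted p = 0.000293), were lower in TNF-Tg lungs. Retnla had a log2 fold change of -1.17 without WT replicate 3, where it was highest. Chil3, the macrophage lectin Ym1, rose by 1.23 (adjusted p = 0.000335) and Il2ra, the IL-2 receptor chain of regulatory T cells, by 1.09 (adjusted p = 0.00593), and these 2 are also on marker lists of alveolar macrophages and regulatory T cells. The type 2 cytokine genes Il5 and Il13 were too low to be tested, with at most 8 counts and 1 count in any lung.

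Among genes induced by IL-18 or interferon-γ downstream of it, 6 of 9 tested were higher, 2 were lower and 1 did not pass (88.9% called, against 47.4% of all genes, of which 24.0% higher). The number higher was 5 to 7 with 1 lung left out, and 5 without TNF-Tg replicate 1 or any single WT lung. The chemokines Cxcl9 (4.37, adjusted p = 2.8e-05), Cxcl10 (4.13, adjusted p = 4.63e-05) and Ccl3 (3.21, adjusted p = 4.21e-05) rose the most. The cytotoxic genes Gzmb (-1.62, adjusted p = 0.0056) and Prf1 (-1.23, adjusted p = 0.00178) fell. Markers of NK cells, which carry both, were lower for 2 of 4 genes and higher for 0 of 4. That is 50% called, near the 47.4% of all genes, with 23.4% of all genes lower. Their summed level was 20.2 to 21.3 CPM in TNF-Tg against 35.8 to 50.1 CPM in WT lungs. This difference lay largely in Gzma, with 43, 46 and 92 counts in TNF-Tg and 624, 820 and 595 in WT lungs. Klrb1c (-0.03, adjusted p = 0.910) and Nkg7 (0.12, adjusted p = 0.497) did not pass. Gzma (-3.31, adjusted p = 4.16e-05) and Ncr1 (-2.22, adjusted p = 0.00229) were the NK markers that fell, and their part in the fall of Gzmb and Prf1 was not tested. Ifng itself did not pass the filter on low counts, with 17, 8 and 22 counts in TNF-Tg lungs and 6, 7 and 9 in WT lungs.

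**Figure D4:**
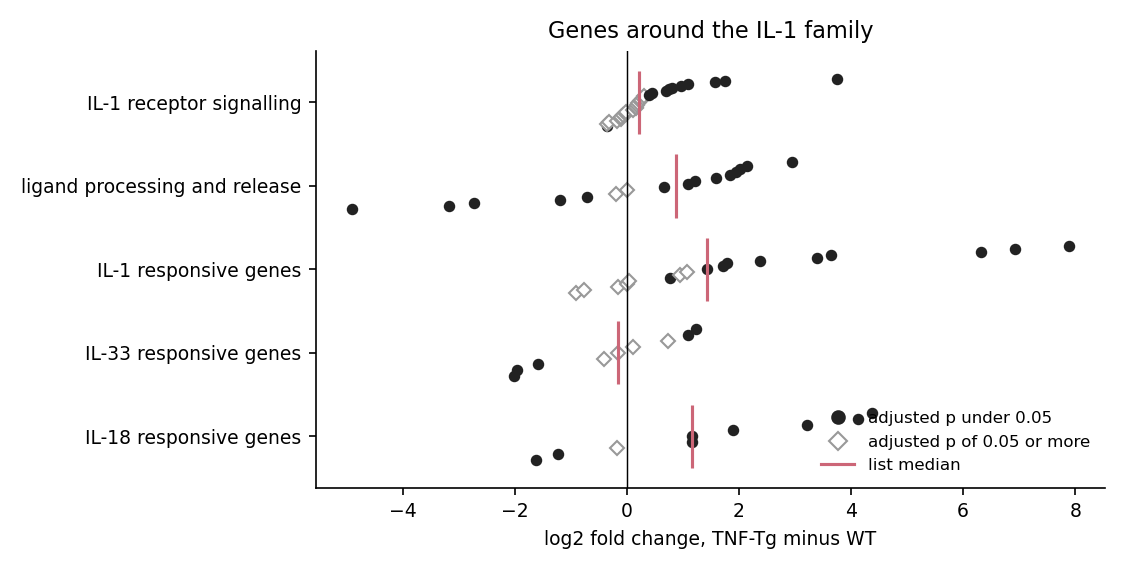
Log2 fold changes (TNF-Tg minus WT) of the tested genes of 5 lists around the IL-1 family, 1 point per gene, filled circles for an adjusted p under 0.05 and open diamonds otherwise, with a red line at the list median. Medians are 0.22 for IL-1 receptor signalling, 0.88 for ligand processing and release, 1.43, -0.16 and 1.16 for the genes responsive to IL-1, IL-33 and IL-18.

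The cell types that carry these genes also differed between the groups, and the values stand here beside the family. The counts are to be read against the 24.0% of all genes that were higher and the 23.4% that were lower. Markers of interstitial macrophages and monocytes, which are sources of Il1b, Il1a and Il1rn, were higher for 12 of 12 genes, with a summed level of 4230 to 5198 CPM in TNF-Tg against 504 to 563 CPM in WT lungs. Alveolar macrophage markers were split, 3 higher, 2 lower and 3 not passing of 8, and they summed to 2297 to 3707 CPM in TNF-Tg against 422 to 523 CPM in WT lungs. Marco, a scavenger receptor, had 44197 to 92284 counts in TNF-Tg and 272 to 996 counts in WT lungs, and it made up most of the TNF-Tg sums. Mrc1 (log2 fold change 1.53, adjusted p = 2.98e-05) and Chil3 (1.23, adjusted p = 0.000335) also rose. Siglecf fell (-1.27, adjusted p = 0.00426), as did Car4 (-1.72, adjusted p = 5.97e-05), which capillary endothelium also expresses. Neutrophil markers, of which 7 of 10 were lower and 1 was higher, summed to 78.8 to 131 CPM against 215 to 371 CPM. With 1 lung left out, 5 to 7 were lower and 0 to 1 higher. Ltf had the largest WT counts of this list (3245 to 6334, against 360 to 626 in TNF-Tg lungs). Csf3r was the gene that was higher (log2 fold change 0.64, adjusted p = 0.0276), and Mmp8 did not pass (-0.12, adjusted p = 0.736). The defining neutrophil gene Ly6g had 10 to 22 counts in TNF-Tg and 26 to 41 counts in WT lungs (adjusted p = 0.0804).

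The cells that bear ST2 did not move together. Mast cell and basophil markers summed to 0.262 to 2.44 CPM over 8 genes in TNF-Tg lungs, against 4.47 to 6.86 CPM in WT lungs, with 0 of 4 tested genes higher and 3 lower (5 of 5 lower without TNF-Tg replicate 3). TNF-Tg replicate 3 held most of them, with 19 counts of Cpa3 and 18 of Mcpt8 against at most 2 in the other TNF-Tg lungs. Tpsab1 had 0 counts in all TNF-Tg lungs and 3, 1 and 1 in WT lungs, at or under the floor in both groups. Regulatory T cell markers were higher for 3 of 4 genes (16.2 to 37.2 against 8.35 to 11.3 CPM), among them Foxp3 (log2 fold change 2.06, adjusted p = 0.0071). The number higher was 2 to 4 with 1 lung left out. TNF-Tg replicate 1, the lung with the highest sum, had 373 counts of Ctla4, against 140 and 77 in the other TNF-Tg lungs. Alveolar type 2 cell markers, a source of Il33 in mouse lung, were lower for 3 of 8 genes and higher for 0 of 8 (15944 to 20363 against 22722 to 27362 CPM), a share called of 37.5% that is under the 47.4% of all genes. Sftpc, which made up most of the TNF-Tg sums, did not pass (-0.52, adjusted p = 0.0837). Endothelial markers were lower for 7 of 7 genes, and markers of fibroblasts, which also express Il1r1 and Il33, for 7 of 8 (5 to 7 with 1 lung left out). T cell and innate lymphoid markers were higher for 5 of 8, a count that was 3 without TNF-Tg replicate 1, TNF-Tg replicate 2, WT replicate 1 or WT replicate 2. Gata3 (-0.41, adjusted p = 0.115) and Rora (-0.10, adjusted p = 0.642), which innate lymphoid cells express, did not pass, although Gata3 passed as lower without TNF-Tg replicate 1 (-0.63, adjusted p = 0.036). The part of these differences in the levels of the 10 genes was not tested.

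**Figure D5:**
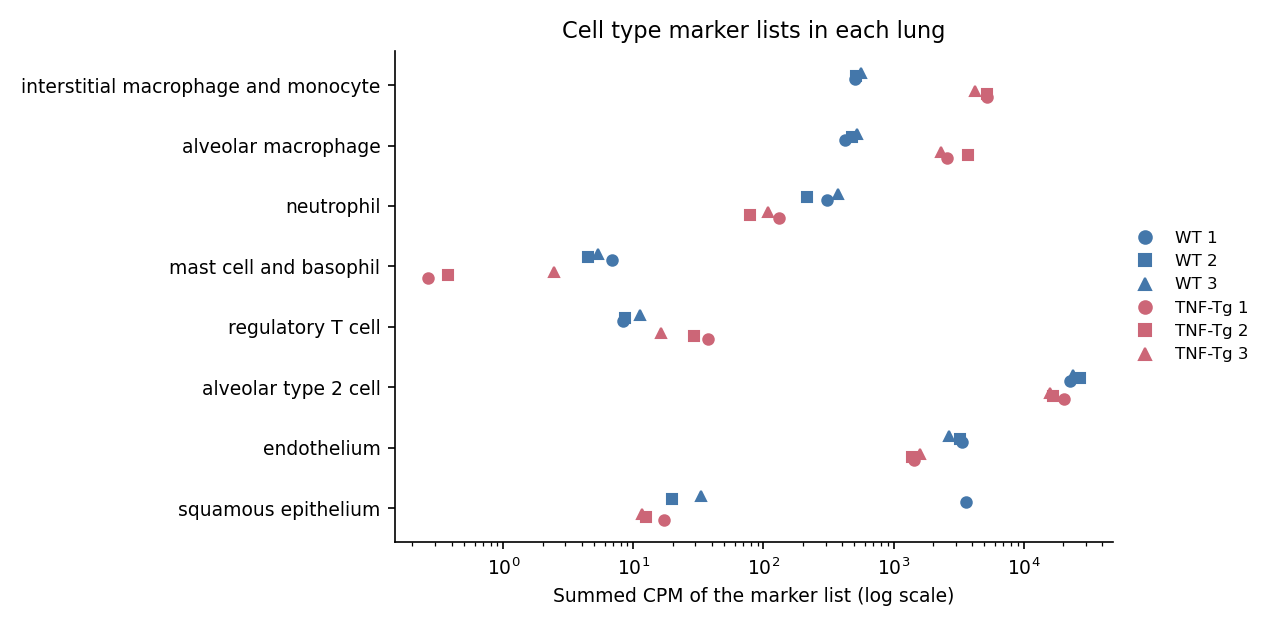
Summed CPM (log axis) of 8 cell type marker lists in each lung, WT in blue and TNF-Tg in red, with a symbol per replicate. Macrophage and regulatory T cell lists lie higher (the alveolar list with 3 genes higher and 2 lower), and neutrophil, mast cell, alveolar type 2 and endothelial lists lower, in all TNF-Tg lungs (alveolar type 2 with 5 of 8 genes not passing), and WT replicate 1 stands apart for squamous epithelium at 3589 CPM.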

How the data were processed

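Single-end libraries were prepared with strand marking by dUTP. Per the labels and the methods, the authors cleaned reads (Trimmomatic), aligned to mm10 (STAR 2.5.2b) and deposited raw counts per gene symbol and mouse. The processing notes name featureCounts and the build GRCm38.p5, and the strand setting and annotation are not given in the sources used here. All 6 columns were matched to mice by genotype and number.

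Counts were filtered (filterByExpr), scaled by TMM and tested with edgeR 4.0.16 in R 4.3.3 (quasi-likelihood, genotype only, adjusted p cutoff 0.05), where the study names DESeq2. The standard error is the fold change over the root of F. Log2 CPM used a prior count of 2. Alternatives were DESeq2 1.42.0, limma-voom (limma 3.58.1), other scalings and filters, robust dispersion, the replicate block and each lung left out. The programs were checked on simulated counts in which far fewer genes were changed than were called here, so the check does not cover so wide a difference. Positions and exon lengths are those of GENCODE M21. Shared 100-base windows with other genes were found for Il1a (6.72%, Gm14023) and Il1rap (3.08%, Gm20319, with 0 counts) and for none of the other 8. The members and lists were chosen with earlier results of these data known. Named genes were the 10, the further family genes, up to 3 rises and 3 falls by size per list, and Myd88, Irak4, Casp1, Il6, Il5, Il13 and Ifng. Other genes were chosen after values were seen.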

Additional observations from a re-analysis of the deposited data

How the results depend on the processing

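The calls of Il1a, Il1b, Il1rn, Il1r1, Il1rl1 and Il18bp held in all 16 fits of the whole table, and Il33, Il1r2 and Il1rap were called in 0 of 16. With each lung left out, 6 to 7 of the 10 genes passed, and 4 when a log2 fold change of 1 or more was also required. Il18 missed the cutoff with total counts only (log2 fold change 0.56, edgeR adjusted p = 0.0527) and passed in 9 of 16 fits. On leaving out 1 lung, log2 fold changes ranged from 1.81 to 2.83 for Il1b, -0.46 to 0.80 for Il1r2, -0.45 to 0.079 for Il33 and 0.39 to 0.76 for Il18. With limma-voom, Il1r2 turned to 0.38. The cause of these turns was not tested. Of the other family genes, 1 to 2 passed with a lung left out and 1 with that fold change required. The same requirement left 4 of the 28 IL-1 receptor signalling genes, against 11 without it, where 22.5% of all genes passed. A filter of at least 10 counts in every lung left 12 IL-1 responsive genes to test, of which 6 passed, where 49.0% of all genes passed. The within-lung difference of Il1rn to Il1a ranged from -0.018 to 0.32 and that of Il1r2 to Il1r1 from -1.21 to 0.16 with a lung left out. Without the filter on low counts, Il36rn also passed as lower (log2 fold change -6.32, edgeR adjusted p = 0.048), with all its 31 counts in WT replicate 1, and DESeq2 did not call it (adjusted p = 0.267).

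The replicate numbers are shared by the groups but the mice are different animals, and same-numbered lungs did not deviate together (correlations across genes of -0.15, -0.0043 and -0.24). Adding a replicate block by number let 7686 genes pass, against 9096, Il18 lost the cutoff (log2 fold change 0.56, edgeR adjusted p = 0.0623) and Il1r2 turned to 0.28 (adjusted p = 0.729).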
